A study of Mus musculus with 34 samples.

Results

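The peak list of FLAG-tagged EP300 in the face of mouse embryos of embryonic day 11.5 was set against the peak list of its own input control. EP300 is a histone acetyltransferase that transcription factors bring to enhancers and promoters, where it acetylates histones, H3K27 among them. It has no fixed DNA sequence of its own, so its sites are read from immunoprecipitated chromatin, and active gene starts with open chromatin can also stand out in control libraries. In the embryonic face, EP300 occupancy away from gene starts is a common way to find enhancers of the facial prominences.

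All 3589 rows of the EP300 list were kept, of 354733 peaks and regions in the 30 lists of the series. A row was called inside the control where it overlapped at least 1 bp of a control peak, and outside it otherwise. Of the 3589 peaks, 2313 were inside (64.4%) and 1276 were outside. The embryos came from a 129/C57BL/6 line carrying a FLAG knock-in, with males and females pooled and about 300 embryos per library. The sample descriptions name Ep300/FLAG, whereas the genotype tag of both libraries reads SMARCA4/FLAG knock-in, so the tagged protein was taken from the title and description. Whether the input control was unenriched chromatin is not stated. In pooled tissue, a site occupied in few cells and one occupied weakly in many cannot be told apart. Limb H3K4me1, H3K4me3, H3K27ac and H3K27me3 came from CD1 embryos of the same day, about 150 per library, and thus from another tissue and strain than the face peaks. The other FLAG lists used beside EP300 face were of SMARCA4 (ATPase of the SWI/SNF remodelling complex), SMARCC2 (a further subunit), EP300 itself in embryonic stem cells (ESC) and the coactivators NCOA1 and NCOA2, which serve nuclear receptors, in hindbrain. SMARCA4 lists were of ESC, face, forebrain, midbrain, hindbrain, neural tube, heart and limb, and SMARCC2 lists of face and hindbrain. All but the ESC lists came from embryos of the same day. SMARCA4 libraries of face, forebrain, hindbrain, neural tube and limb pooled 150 embryos, and the other embryonic FLAG libraries 300. Every condition had 1 library, so there was no replicate check and no p-value was computed. Brackets give 95% intervals (exact unless named otherwise) that cover counting error only.

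The face label could not be checked against expression, since peaks do not measure RNA. Among gene symbols that occurred in any of the 16 tables with gene names, 3439 of 18835, or 18.3%, were nearest to an EP300 face peak. Of genes for transcription factors of the facial prominences, 8 of 38 had such a peak (21.1%). Lists of other cell types had 3 of 15 for endothelium (20%), 1 of 7 for blood, 2 of 17 for pluripotency, 1 of 14 for cranial neurons and placodes, 1 of 19 for heart, 1 of 23 for HOX clusters, 0 of 12 for skeletal muscle and 0 of 9 for facial epithelium. RNA splicing genes had 16 of 25 (64.0%), so the face transcription factors lay near the share of all symbols and did not set the tissue apart.

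Because most EP300 peaks lay at genes, promoter sequences are shown first, for the highest-scoring peaks within 250 bp of a gene that lay over limb H3K4me3 and whose symbol had a single RefSeq promoter, 2 outside the control and then 2 inside it. Each runs 5′ to 3′ on the gene's strand from 250 bases before the start to 50 after it, from RefSeq in build GRCm38.p6, matched by symbol and not by the mm9 position of the peak. Capitals mark matches, overlapping ones included, to the motifs searched on both strands, which were GGGCGG (GC box), CCGGAAGT (ETS), CGCATGCG (NRF1), TGACGTCA (the CRE bound by CREB, a partner of EP300) and CACGTG (E-box). Of 32851 promoters, 35.7% held the GC box, 3.89% the ETS motif, 1.87% the NRF1 motif, 1.79% the CRE and 7.15% the E-box.
Hdx promoter, outside, chrX:111697030-111697329 (minus strand): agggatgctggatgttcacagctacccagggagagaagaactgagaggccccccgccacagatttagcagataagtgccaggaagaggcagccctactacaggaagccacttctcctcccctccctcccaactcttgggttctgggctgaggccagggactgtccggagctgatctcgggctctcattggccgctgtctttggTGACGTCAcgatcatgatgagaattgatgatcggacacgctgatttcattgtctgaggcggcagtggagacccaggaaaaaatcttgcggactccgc
Wbp11 promoter, outside, chr6:136828167-136828466 (minus strand): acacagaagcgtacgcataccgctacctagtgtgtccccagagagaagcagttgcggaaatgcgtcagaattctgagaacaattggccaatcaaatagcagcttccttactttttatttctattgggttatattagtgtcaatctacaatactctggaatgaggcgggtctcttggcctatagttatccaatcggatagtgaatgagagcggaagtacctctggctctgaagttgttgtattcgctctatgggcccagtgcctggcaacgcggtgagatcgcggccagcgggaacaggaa
Eif4h promoter, inside, chr5:134639360-134639659 (minus strand): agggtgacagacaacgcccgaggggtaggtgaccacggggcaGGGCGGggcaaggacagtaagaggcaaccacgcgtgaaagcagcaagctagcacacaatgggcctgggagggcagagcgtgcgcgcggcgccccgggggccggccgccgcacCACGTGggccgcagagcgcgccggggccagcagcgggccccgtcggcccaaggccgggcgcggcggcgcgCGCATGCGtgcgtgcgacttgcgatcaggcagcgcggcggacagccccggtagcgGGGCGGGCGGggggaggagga
Hipk3 promoter, inside, chr2:104494440-104494739 (minus strand): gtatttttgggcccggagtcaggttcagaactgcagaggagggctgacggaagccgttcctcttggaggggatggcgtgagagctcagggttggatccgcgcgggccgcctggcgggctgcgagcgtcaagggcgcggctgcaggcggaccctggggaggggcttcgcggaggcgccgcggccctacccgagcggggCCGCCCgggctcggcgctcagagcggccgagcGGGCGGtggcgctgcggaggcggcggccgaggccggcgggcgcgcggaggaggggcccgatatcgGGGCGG
Hdx, an X-linked homeobox gene, had an outside peak of 174 EP300 tags at 105-fold, 62 bp away, and its promoter held 1 CRE and 11 CG dinucleotides. Wbp11, a splicing factor gene, had an outside peak of 141 tags at 14-fold, and its promoter held none of the 5 motifs and 14 CG. Eif4h, a translation initiation factor gene, had an inside peak of 304 tags at 18-fold over 15 control tags, with 3 GC boxes, 1 NRF1 motif, 1 E-box and 41 CG. Hipk3, a kinase gene, had an inside peak of 324 tags at 10.3-fold over 8 control tags, with 3 GC boxes and 42 CG. A motif match is a description of these letters and no binding site. A comparison of promoter sequence between all inside and outside peaks was void, since 74.9% of 2197 inside and 74.7% of 582 outside proximal symbols had a promoter in the table, by symbol or synonym, under the 80% needed.

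Peaks close to genes made up most of what the control shared with EP300. The authors' distance to the nearest gene was 1 kb or less for 2783 of 3589 peaks (77.5%). Of these proximal peaks, 2201 were inside the control, or 79.1% (77.5 to 80.6). Between 1 and 10 kb the share was 24.7% (19.4 to 30.6) of 243 peaks, between 10 and 50 kb 11.5% (8.19 to 15.6) of 313 peaks, and beyond 50 kb 6.40% (3.70 to 10.2) of 250 peaks. Seen from the other side, 95.2% (94.2 to 96.0) of the peaks inside the control were proximal, against 45.6% (42.9 to 48.4) of those outside. The difference was -49.5 percentage points (Newcombe interval -52.4 to -46.6). Of the 563 distal peaks, those over 10 kb from a gene, 511 were outside the control. Widening each control peak by 500 bp would move 75 of the 1276 outside peaks inside.

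Peaks inside and outside also differed in size. The median peak inside the control held 110 tags (108 to 113), was 1240 bp wide and had a fold enrichment of 5.72 (5.62 to 5.81), as given by the authors. The median peak outside held 32.5 tags (29 to 36), was 606.5 bp wide and had a fold of 8.86 (8.62 to 9.03). The lowest tag count inside was 29, and the lowest outside was 11. None of the 483 peaks with fewer than 20 tags was inside the control, a count that allows a share of up to 0.621% by the limit of 3 counts, or 0.761% as the end of the exact interval. Of the peaks with 20 to 49 tags 15% (11.5 to 19.1) were inside, of those with 50 to 99 tags 74.3% (71.7 to 76.8), and of those with 100 to 199 tags 88.8% (86.9 to 90.4). Width rose with tags across the inside peaks (Spearman's rho 0.78 across 2313 peaks, which are not independent replicates), and its part in the overlap was not tested.

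The contrast with distance was also present among peaks of like tag count. Among peaks of 100 to 199 tags, 90.1% (88.3 to 91.7) of the 1213 proximal peaks were inside the control and 60.5% (44.4 to 75) of the 43 distal ones. Among peaks of 200 or more tags the shares were 92.2% (88.1 to 95.2) of 244 and 44.4% (21.5 to 69.2) of 18. When only peaks with 50 or more tags were kept, an alternative added after seeing the data, the share of proximal peaks was 14.9 points lower outside than inside (difference -14.9, interval -18.8 to -11.5). Over all peaks it was -49.5.

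**Figure D1:**
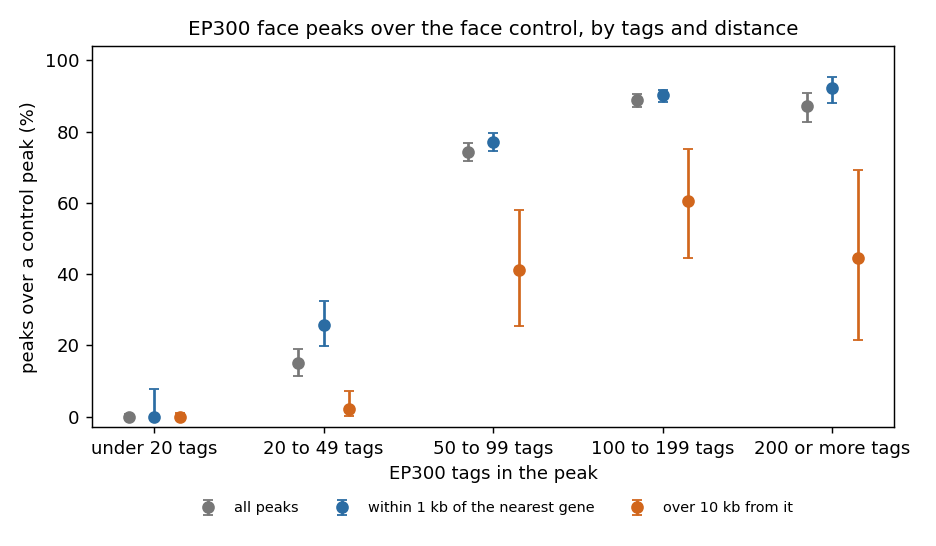
Share of EP300 face peaks that overlapped a face control peak (vertical axis, percent) in 5 classes of EP300 tags per peak (horizontal axis), for all peaks (grey), peaks within 1 kb of the nearest gene (blue) and peaks over 10 kb from it (orange), with exact 95% intervals. The share was 0 below 20 tags and 92.2% for proximal peaks of 200 or more tags, and from 20 tags upward distal peaks lay below proximal peaks.

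The control peaks under the inside EP300 peaks were modest in tags. Of 28895 control peaks, 2341, or 8.10%, lay under an EP300 peak, and 93.7% (92.6 to 94.6) of these were proximal, against 31.0% (30.5 to 31.6) of the other 26554 control peaks. The control peaks under EP300 had a median of 19 tags (19 to 20) and those elsewhere 13 (13 to 13). Nearly all inside peaks, 2285 of 2313, met a single control peak, and the remaining 28 met 2. All 2313 had more tags than the control peaks beneath them, with a lowest ratio of 1.48, but library depths are unknown and the EP300 peaks were wider, so the ratio is no enrichment. EP300 tags and control tags rose together across inside peaks (Spearman's rho 0.37), while EP300 fold fell with control tags (rho -0.20) and EP300 score, which is -10 log10 of the authors' p, had a rho of -0.02. These are descriptions across 2313 peaks that share the same 2 libraries.

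Other control lists met the inside peaks to very different degrees. The midbrain SMARCA4 control overlapped 94% of the EP300 peaks inside the face control and 29.1% of those outside it. At proximal peaks the shares were 94.3% and 57.0%, and at distal peaks 82.7% of 52 and 1.57% of 511. The NCOA2 hindbrain control overlapped 40.3% of the inside and 7.68% of the outside peaks. The other control of face tissue, that of SMARCC2, overlapped 0.259% of the inside peaks, the NCOA1 hindbrain control 3.50% and the SMARCC2 hindbrain control 4.67%. These control lists differed widely in size. They held 19772 peaks for midbrain, 6781 for NCOA2, 1990 for NCOA1, 1078 for SMARCC2 face and 921 for SMARCC2 hindbrain. The part of list size in these shares was not tested. Lists of other proteins met the EP300 face control as well. It was overlapped by 83.2% (81.9 to 84.4) of NCOA2 hindbrain peaks, 77.0% (75.9 to 78.1) of SMARCA4 limb peaks and 59.5% (58.9 to 60.2) of limb H3K4me3 regions, but by 5.47% (4.94 to 6.04) of SMARCA4 ESC peaks. The EP300 share of 64.4% lay within this range. Widths in these lists were unlike, and a wider region meets a control peak more easily. Median widths were 937 bp for NCOA2 hindbrain, 2300 bp for SMARCA4 limb and 1753 bp for limb H3K4me3. They were 158 bp for SMARCA4 ESC and 1078 bp for EP300 face. The part of width in these shares was not tested.

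The authors' false discovery rate (FDR) ordered the 2 sets differently from fold. An FDR of 5% or less was given to 790 of 3589 peaks (22%), of which 625 were inside and 165 outside. That was 27% (25.2 to 28.9) of inside and 12.9% (11.1 to 14.9) of outside peaks, a difference of -14.1 points (-16.6 to -11.5). An FDR of 100% was given to 57.5% (54.8 to 60.3) of the outside and 27.7% (25.9 to 29.5) of the inside peaks. The difference was -8.96 points (-12.4 to -5.20) within 1 kb of a gene, -25.7 (-38.8 to -13.7) between 1 and 10 kb and -31.4 (-45.1 to -18.8) beyond 10 kb. Among peaks scoring at least 100 it was 0.97 points (-5.40 to 7.22), and among peaks with 50 or more tags, the alternative added after seeing the data, 4.34 points (-0.09 to 9.0). These filters select on quantities tied to the FDR, since no peak at an FDR of 5% or less scored below 162.4, and they do not test the difference. Whether the control library entered the authors' peak calling or their FDR is not stated.

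Fold of 20 or more, a threshold chosen after seeing the values, was reached by 88 peaks (2.45% of all), of which 64 were outside and 24 inside. The tags divided by the fold give the background that the caller implied at a peak. Its median was 18.8 tags (18.3 to 19.2) inside and 3.31 tags (2.85 to 3.81) outside, so inside peaks had both more tags and a higher implied background. Median conservation, a score whose scale is not stated, was 451 (447 to 456) inside and 368 (357 to 383) outside. It was 0 for 2.90% of inside and 21.9% of outside peaks. Among proximal peaks the medians were 452 (448 to 457) and 449 (438 to 462), so the difference lay away from genes.

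**Figure D2:**
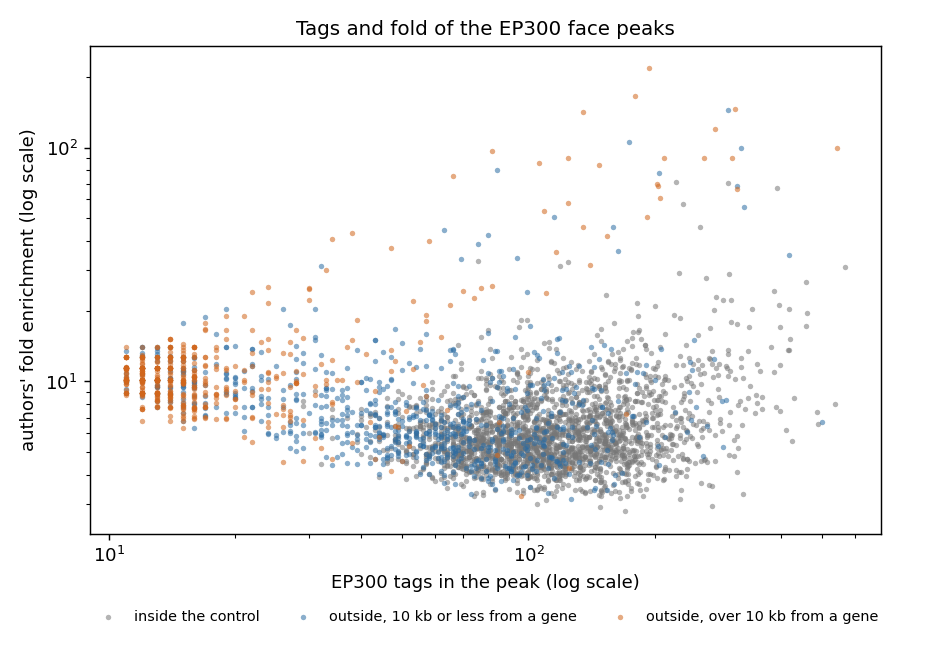
Tags (horizontal axis, log scale) and the authors' fold enrichment (vertical axis, log scale) of each of the 3589 EP300 face peaks, for peaks inside the control (grey), outside within 10 kb of a gene (blue) and outside over 10 kb from a gene (orange). Inside peaks form a cloud around 110 tags and 5.72-fold, weak outside peaks stand at the left from 11 tags upward, and a small group outside the control reaches folds up to 219.

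Limb histone marks split the outside peaks by distance. H3K4me3, a mark of active gene starts, overlapped 2913 of 3589 EP300 peaks (81.2%). It overlapped 98.6% of the peaks inside the control and 49.5% of those outside, a difference of -49.1 points (-51.9 to -46.3). At proximal peaks the gap was small, 99% against 92.3% (difference -6.69, interval -9.17 to -4.71). At distal peaks it was 84.6% of 52 inside against 7.05% of 511 outside (difference -77.6, interval -85.2 to -65.2). Most distal peaks inside the control thus carried the limb mark of gene starts, although the authors' nearest gene lay more than 10 kb away.

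H3K27ac, a mark of active promoters and enhancers, overlapped 97.7% of proximal inside and 85.7% of proximal outside peaks. It overlapped 80.8% of distal inside peaks and 6.07% (4.16 to 8.50) of distal outside peaks. H3K4me1, found at enhancers and beside gene starts, covered more of the distal outside peaks, 108 of 511 or 21.1%, against 35 of 52 or 67.3% inside. Polycomb's H3K27me3 went the other way at proximal peaks, with 14.6% outside and 5.27% inside (difference 9.33 points, interval 6.51 to 12.6). At distal peaks H3K27me3 overlapped 5.87% of 511 outside and 15.4% of 52 inside (difference -9.51 points, interval -21.8 to -1.76). No limb mark at all overlapped 74.6% of the 511 distal outside peaks, 3.78% of the 582 proximal outside peaks and 0.432% of all inside peaks.

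The tagged coactivators divided the peaks in a similar way. SMARCA4 in face overlapped 2791 of 3589 EP300 face peaks (77.8%). Its share was 96.4% of proximal inside, 76.5% of proximal outside, 94.2% of distal inside and 13.9% of distal outside peaks. EP300 in ESC overlapped 1647 peaks (45.9%), with 61.7% of proximal inside, 27.5% of proximal outside, 55.8% of distal inside and 7.24% of distal outside peaks. SMARCA4 in ESC overlapped 303 peaks (8.44%) and hardly separated the sets, with 8.0% inside and 9.25% outside. At least 1 of the 13 other FLAG lists overlapped 99.7% of inside and 60.9% of outside peaks, and the median number of such lists was 5 inside and 1 outside.

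**Figure D3:**
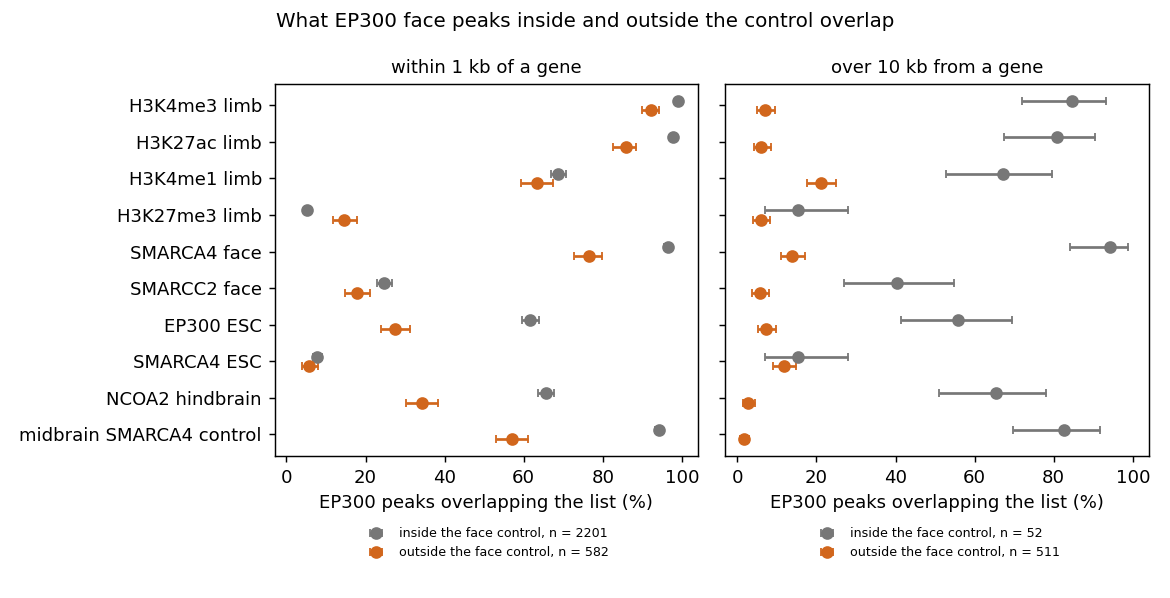
Share of EP300 face peaks that overlapped each list (horizontal axis, percent, exact 95% intervals), for peaks inside (grey) and outside (orange) the face control, proximal peaks in the left panel and distal peaks in the right. Proximal peaks resembled each other in limb H3K4me3 (99% and 92.3%), and distal peaks did not (84.6% and 7.05%).

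Most outside peaks were therefore described in 3 groups, chosen after their values were seen. The groups leave out the 183 outside peaks between 1 and 10 kb from a gene. Of these, 17 had an FDR of 5% or less, with a median fold of 31.0 (9.69 to 44.6). Distal outside peaks whose FDR lay between those of the other groups are also left out. The first group was the 582 proximal peaks, of which 102 had an FDR of 5% or less. The 582 had a median of 64 tags (61 to 68) and a fold of 6.47 (6.26 to 6.78). Those 102 had a median of 125.5 tags, lay over SMARCA4 face at 87.3% (79.2 to 93) and were in a median of 5 other FLAG lists. The 583 proximal inside peaks with such an FDR were higher on each of these, with a median of 163 tags (156 to 169), SMARCA4 face at 97.9% (96.4 to 98.9) and a median of 6 other FLAG lists. EP300 in ESC overlapped 36.3% (27 to 46.4) of the 102 and 71.0% (67.1 to 74.7) of the 583. NCOA2 hindbrain overlapped 66.7% and 90.2%, SMARCA4 neural tube 75.5% and 95.2%, and the midbrain control 68.6% and 96.2%.

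The second and largest distal group was weak. Of the 511 distal outside peaks, 433 had an FDR of 50% or more. These had a median of 14 tags (14 to 14), a width of 399 bp and a score of 57.1, close to the lowest score of the tables, 50. The low score follows from the selection, since no peak at an FDR of 50% or more scored above 87.24. Only 22.9% (19 to 27.1) were in any other FLAG list, 10.9% in SMARCA4 face, 22.9% over limb H3K4me1 and 73.9% (69.5 to 78.0) over no limb mark, and 40.6% (36 to 45.4) had a conservation score of 0.

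The last group was small and strong. At an FDR of 5% or less there were 46 distal outside peaks, with a median of 109.5 tags (70 to 147), a fold of 42.6 (25.6 to 68.7) and a width of 722.5 bp. Their strength follows in part from this selection, since no peak at such an FDR scored below 162.4. Limb marks were absent from 41 of the 46 (89.1%, 76.4 to 96.4), and only 1 lay over limb H3K27ac. Their median conservation score was 125 (0 to 296), and 23 of 46 scored 0. In another FLAG list were 40 of 46 (87.0%, 73.7 to 95.1). This was near the share over all EP300 face peaks, of which 14.1% were in no other FLAG list. The most common partner was SMARCA4 in ESC, with 39 peaks (84.8%, 71.1 to 93.7), against 16 of the 433 weak distal peaks (3.70%, 2.13 to 5.93). Over all EP300 face peaks its share was 8.44%. For strong distal peaks inside the control it was not counted as a set. EP300 in ESC held 22, SMARCA4 heart 16, SMARCA4 face 14, NCOA2 hindbrain 11 and NCOA1 hindbrain 8. By construction none met the face control, and 45 of the 46 were also in none of the 8 other control and input lists. The same held for 497 of all 511 distal outside peaks. ESC and face lists came from different cells, so an overlap between them is not evidence of a site active in face.

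**Figure D4:**
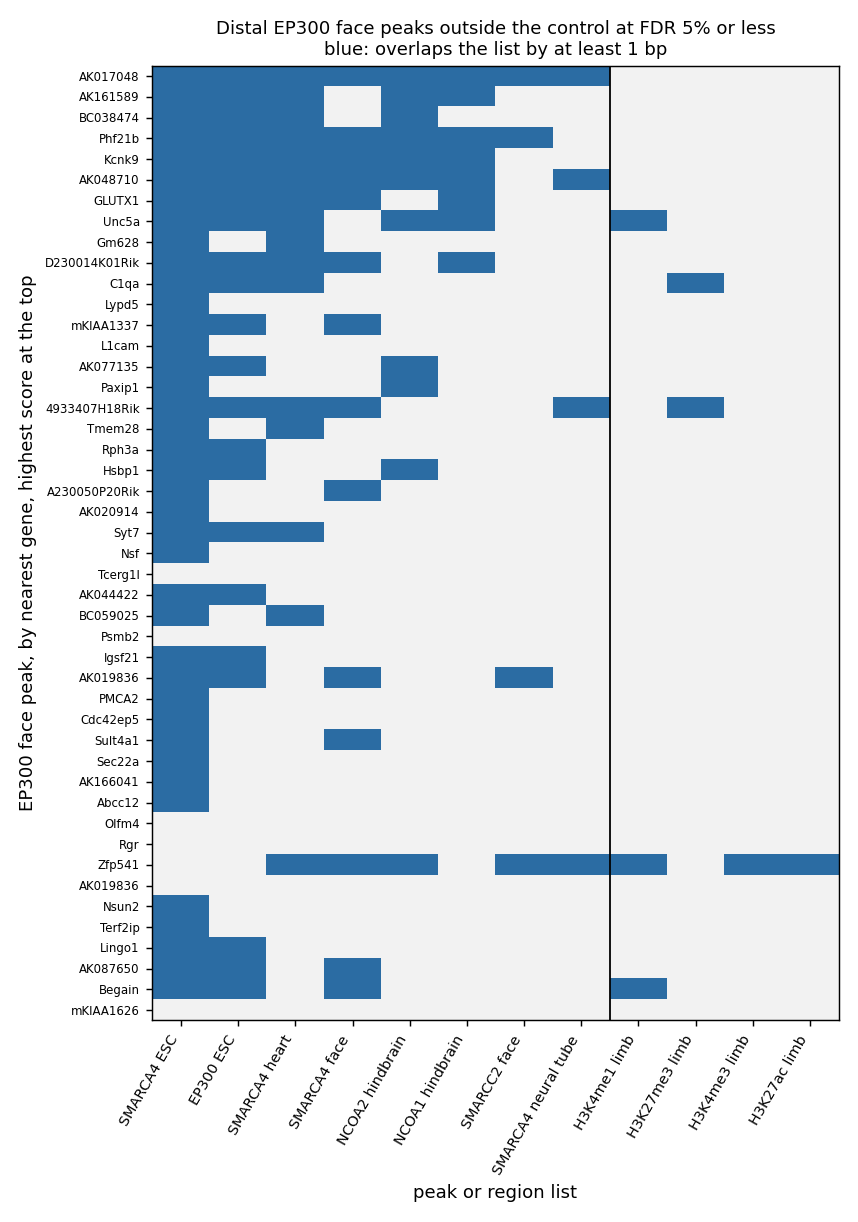
The 46 distal EP300 face peaks outside the control at an FDR of 5% or less (rows, named by the authors' nearest gene, highest score at the top) and the FLAG lists and limb marks (columns, separated by the black line) that overlapped each by at least 1 bp (blue). The SMARCA4 ESC column is filled in 39 rows and the limb H3K27ac column in 1.

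The 10 highest-scoring peaks outside the control belonged mostly to this last kind. Of the 10, 2 were proximal, 8 were over no limb mark, 9 were in SMARCA4 ESC and 9 in EP300 ESC. Those near 2310047B19Rik and Vstm2l, at 5235 and 1230 bp, were neither proximal nor distal. The highest score, 3189, was 38 bp from Olfr1344, named as an olfactory receptor gene, at chr7:6362548-6363269 (mm9). It held 299 tags at 145-fold and no limb mark. The second lay 228196 bp from the transcript AK017048 at chr4:150978115-150979603, with 542 tags, 99.8-fold and overlap with 8 other FLAG lists. BC038474 was nearest to the highest fold of all, 219, over 194 tags at a distance of 17241 bp. The peak near Phf21b, a gene for a PHD finger protein, had 305 tags at 90.1-fold, and that near the potassium channel gene Kcnk9 179 tags at 166-fold.

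Zfx stood apart from these. Its peak at chrX:91367367-91369138, 566 bp from this X-linked zinc finger gene, had 417 tags at 34.9-fold, lay over limb H3K4me3 and was in 5 other FLAG lists but not in SMARCA4 ESC or EP300 ESC. Vstm2l had a peak of 314 tags at 68.8-fold, 1230 bp from the gene, over limb H3K27me3 and H3K4me1. The 10 also held peaks near AK161589 (310 tags, 146-fold), 2310047B19Rik (320 tags, 99.3-fold) and AK048710 (278 tags, 120-fold). None of these 10 had a face control peak beneath it, by construction, but those near Zfx and Vstm2l each lay over 1 other control or input list.

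Distal outside peaks further down the order had nearest genes of varied known roles. Those given here were picked after their values were seen, some of them for a link to REST, the repressor of neuronal genes. They therefore show no theme, and a link to REST was not tested. The peak near the complement gene C1qa held 202 tags at 69.8-fold, that near Nsun2, an RNA methyltransferase gene, 47 tags at 13.7-fold and that near Terf2ip, a telomere protein gene, 30 tags at 24.9-fold. The peak 21615 bp from Unc5a, a netrin receptor gene, held 314 tags at 66.4-fold and lay over limb H3K4me1. L1cam, a neural adhesion molecule, had a peak of 124 tags at 90.5-fold, 11311 bp away. Rph3a, Syt7 and Nsf, which act in vesicle release, had distal peaks of 124, 140 and 66 tags at 58.1-fold, 31.5-fold and 75.7-fold. Neurod4, a neuronal bHLH factor, had a proximal peak of 69 tags at 33.4-fold with an FDR of 0% and no limb mark. It was the single gene with an EP300 peak among 14 genes of cranial neurons and placodes (7.14%, against 18.3% of all symbols). The gene of REST had an outside peak of another kind, with 244 tags at 6.81-fold, 291 bp away. That peak lay over limb H3K4me3, in 8 other FLAG lists and over 2 other control or input lists.

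The 10 highest-scoring inside peaks were more often at genes. Of the 10, 7 were proximal, 6 lay over limb H3K4me3, and all 10 were in SMARCA4 face and in EP300 ESC. Npas4, a neuronal activity-regulated transcription factor gene, had 391 EP300 tags at 66.9-fold, 799 bp away, over 14 control tags. Cnbp, which encodes a nucleic acid-binding protein, had 396 EP300 tags at 21.2-fold over 37 control tags. Zmynd11, whose product reads histone marks, had 460 over 23, and Kcmf1 418 over 15. Senp6, which encodes a SUMO protease, had 417 over 15. Lrrc41 had the most control tags of the 10, with 536 EP300 tags at 7.99-fold over 63. The distal members near Erich1, AK039749 and NR_002864 had 299, 233 and 225 EP300 tags at 70.5-fold, 57.2-fold and 71.6-fold over 14, 13 and 10 control tags, and carried no limb mark. Each of these distal members was also in SMARCA4 ESC, as were the peaks near Npas4 and Zmynd11, while the rest of the 10 were not. Strong unmarked distal peaks, with SMARCA4 ESC overlap among them, were thus found on both sides of the split. A few control tags sufficed to place one inside.

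Genes with an outside peak numbered 1218 of 18835 symbols (6.47%), and 14590 (77.5%) had a control peak as nearest. An outside peak at an FDR of 5% or less was nearest to 164 symbols (0.871%). Of 38 genes for facial transcription factors, 37 had a control peak, 8 an EP300 peak and 4 an outside EP300 peak (10.5%). None of the 4 reached an FDR of 5%. The outside peaks were near Prrx2, a mesenchymal homeobox gene (72 tags, 5.31-fold, FDR 49.9%), Foxc1, a forkhead gene (112 tags, 4.75-fold, FDR 61.6%), and Dlx1 and Dlx5, homeobox genes of the pharyngeal arches (45 and 58 tags, FDR 67.7% and 100%). The other 4 were all inside. Prrx1 had 180 tags over 22 control tags at an FDR of 3.79%, Alx4 146 over 40, Twist1 99 over 19 and Msx1 153 over 14.

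Of 39 facial signalling genes, 14 had an EP300 peak (35.9%), 5 an outside one (12.8%) and 2 an outside one at an FDR of 5% or less (5.13%, against 0.871% of all symbols). Bmpr1a, a BMP receptor gene, had the strongest, with 242 tags at 12.1-fold, an FDR of 0% and a distance of 428 bp, at chr14:35314853-35316603. Lrp6, a Wnt co-receptor gene, had 93 tags at 9.24-fold and an FDR of 2.03% at its proximal peak, and 11 tags at a second one 29708 bp away. Wnt5a, a Wnt ligand, had 3 outside peaks of 140, 77 and 12 tags with FDRs of 52.2%, 100% and 100%. Cyp26b1, which degrades retinoic acid, and Efnb1, an ephrin ligand, had 69 and 119 tags with FDRs of 52.0% and 56.1%. Among the inside peaks were Spry2, an inhibitor of FGF signalling, with 107 tags over 19, Gli3, a Hedgehog effector, with 168 over 16, Tgfbr2 with 136 over 8 and Pdgfra with 209 over 42.

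Of all 3439 symbols with an EP300 peak, 2221 had inside peaks only (64.6%), and the housekeeping lists lay on either side of that share. Of 25 RNA splicing genes 16 had an EP300 peak (64.0%) and 14 of the 16 had inside peaks only (87.5%), with Hnrnpu at 319 tags over 31 and Sfrs1 at 200 over 9. Hnrnpa1 and Snrpa had outside peaks of 48 and 57 tags. Of 38 proteasome and translation genes 23 had an EP300 peak (60.5%) and 17 of the 23 had inside peaks only (73.9%), with Psma3 at 141 tags over 24 and Eef1a1 at 231 over 31. Psmb2 was nearest to a distal outside peak of 58 tags at 39.7-fold, 22111 bp away. Of 62 ribosomal protein genes 21 had an EP300 peak (33.9%), 12 of the 21 had inside peaks only (57.1%) and 9 had an outside one, among them Rps29 (89 tags, FDR 4.67%).

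Of 30 genes for coactivators and chromatin regulators, 19 had an EP300 peak (63.3%) and 15 of the 19 had inside peaks only (78.9%). Smarce1, a SWI/SNF subunit gene, had 304 tags at 22.2-fold over 8 control tags, and Arid1a and Arid1b 316 over 13 and 389 over 12. The Ep300 gene itself had 220 tags at 5.39-fold over 21. Outside peaks were near Mll3, an H3K4 methyltransferase gene (155 tags, FDR 1.41%), Crebbp, the paralog of Ep300 (57 tags, FDR 59.8%), Chd8 (54 tags, FDR 57.3%) and Med12 (13 tags, FDR 100%).

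Of 24 immediate early genes 7 had an EP300 peak (29.2%, against 18.3% of all symbols) and 3 an outside one (12.5%, against 6.47%), at Btg1 (122 tags, FDR 41.4%), Fos (34 tags, FDR 100%) and Ctgf (11 tags, FDR 100%), while Srf had 220 tags over 30 control tags. Of 19 genes known as targets of signals that use EP300, 5 had a peak (26.3%) and 2 an outside one (10.5%), Smad7 and Ccnd2, with outside peaks of at most 69 and 11 tags. Peaks near Erg and Tek (endothelium), Runx1 (blood), Ryr2 (heart) and Mycn (pluripotency) were all outside, with 12 to 17 tags and an FDR of 100% each. Fli1, also of the endothelium list, had an inside peak of 155 tags over 25 control tags at an FDR of 21.1%, over limb H3K4me3 and H3K27ac. Tbx3 of the pluripotency list had a stronger outside one, of 96 tags at an FDR of 12.4%. The only gene with an EP300 peak among 7 histone genes, H2afz, had it inside, with 63 tags over 22.

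Removing every control and input list of the series, 9 in all, left 872 EP300 peaks. Of these, 227 were proximal (26%, 23.1 to 29.1), 497 distal (57.0%, 53.6 to 60.3) and 82 at an FDR of 5% or less (9.4%, 7.55 to 11.5). SMARCA4 face overlapped 25.7% of them, limb H3K27ac 24.8% and no limb mark 55.2% (51.8 to 58.5). Both SMARCA4 face and SMARCC2 face overlapped 45 of the 872. The highest scores among the 45 after AK017048 and Phf21b were those near Dlgap3, a postsynaptic scaffold gene (115 tags, 50.6-fold), AK019836 (70 tags, 24.4-fold), Serpinh1, a collagen chaperone gene (183 tags, 5.81-fold), Zfp469 (290 tags, 5.24-fold) and Plk1, a mitotic kinase gene (135 tags, 8.31-fold). Bcl9, a cofactor of beta-catenin, had 45 tags at 9.30-fold, and Setd1b, an H3K4 methyltransferase gene, 149 tags at 4.51-fold and an FDR of 20.1%.

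The X chromosome was an exception to the overlap with the control. Of 61 EP300 peaks on X, 11 were inside (18%, 9.36 to 29.98), against 2301 of 3525 on the autosomes (65.3%, 63.7 to 66.8). Across the 19 autosomes the share ran from 58.9% to 72.1%. Of the 50 outside X peaks, 44 were proximal and 45 lay over limb H3K4me3. Among proximal peaks 11 of 55 were inside on X (10.4% to 33.0%) and 80.3% (78.8 to 81.8) of 2726 on the autosomes. X peaks held fewer tags, with a proximal median of 46 against 103 on the autosomes, and the part of that in the lower overlap was not tested. The control list had 243 of its 28895 peaks on X (0.841%), the EP300 list 1.70% and limb H3K4me3 2.64%.

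Outside X peaks at an FDR of 5% or less numbered 7 of 50. Chosen for mention after their values were seen, they included, beside Zfx, Hdx and L1cam, Fmr1, the gene of an RNA-binding protein of neurons (117 tags, 13.2-fold), Atrx, a chromatin remodeller (115 tags, 10.4-fold), and Usp9x, a deubiquitinase (155 tags, 6.06-fold). Inside X peaks included Nono (109 tags over 7 control tags), Ddx3x (172 over 10) and Pgrmc1 (79 over 11). The midbrain control overlapped 24 of the 50 outside X peaks. Other lists also met the face control less on X than on the autosomes, with 35.6% against 83.8% for NCOA2 hindbrain, 33.1% against 60.3% for limb H3K4me3 and 22.4% against 36.9% for SMARCA4 face. Without X, the share of EP300 peaks over the control was 65.2%. Both sexes were pooled in each face library.

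**Figure D5:**
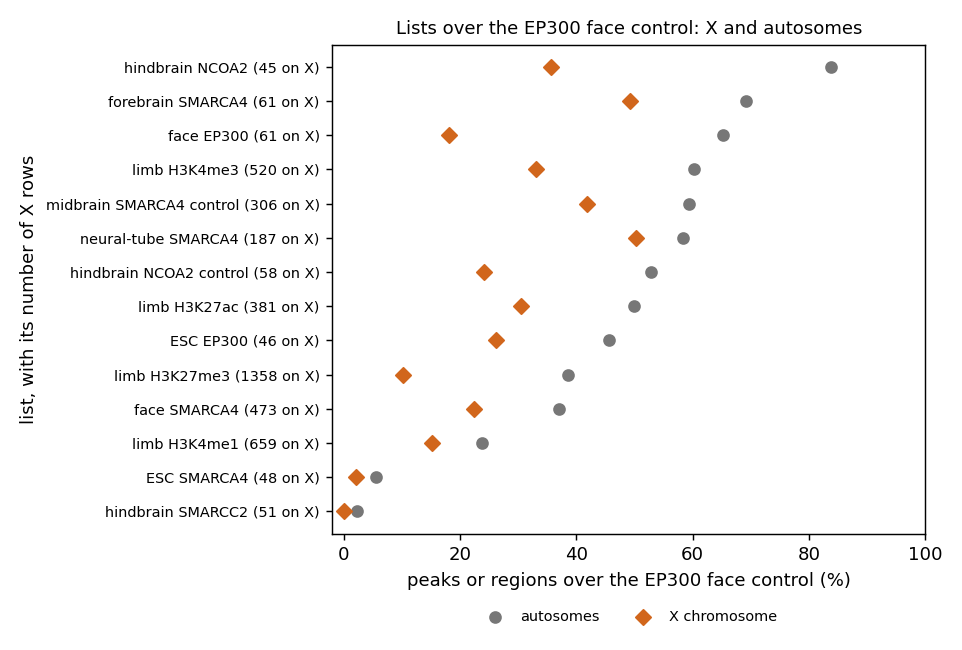
Share of each list that overlapped the EP300 face control (horizontal axis, percent) on the autosomes (grey circles) and on X (orange diamonds), for FLAG, control and limb mark lists with at least 40 rows on X, which are counted beside each name. EP300 face stood at 65.3% and 18%, and in every list plotted the X share was the lower one.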

How the data were processed

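The submitters' processing notes name BWA, without a version, and the build mm9. For the peak caller, no source used here gives a name. Per the file headers, each deposited table gives per peak the count of tags, a score (-10 log10 of p, at least 50 in these tables), a fold enrichment ratio, a conservation score, the nearest gene with its distance and, for EP300 face, an FDR in percent, all as made by the authors and used only within a list. SMARCA4 face, neural tube, forebrain and limb and the histone lists give positions only. The point of a gene from which distance was measured is not stated, and library depth is unknown.

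Overlaps of at least 1 bp, exact binomial (Clopper-Pearson) intervals, Newcombe intervals for differences and exact order-statistic intervals for medians were computed in Python 3.11.15 with pandas 2.3.3, NumPy 2.4.6 and SciPy 1.17.1, drawn with matplotlib 3.10.9 and tested on simulated intervals. Peaks, genes and lists were chosen with earlier results of these data known. Named were the 10 highest scores outside, inside and outside over 10 kb, the 10 highest over SMARCA4 face and SMARCC2 face and in no control, and, per gene list, up to 6 genes outside and 4 inside. Symbols were matched as the tables give them. Alternatives changed the overlap rule, control strength, EP300 threshold and distances. Controls of the SMARCA4 libraries of 4 tissues were not analysed here. Peaks near a few genes are not reported here.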

Additional observations from a re-analysis of the deposited data

How the results depend on the processing

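The share of EP300 peaks inside the control was 17.2% with at least 50% of the peak covered, 42.1% by summit, 66.5% with control peaks widened by 500 bp, 21.9% with as many control peaks as EP300 peaks, 35.9% with control scores of at least 100, 79.4% for EP300 scores of at least 100, 79.1% at an FDR of 5% or less, 75.7% over all control and input lists and 82.4% for peaks with 50 or more tags. In that order, leaving out the widened control, the difference in proximal peaks was -22.6, -31.9, -23.7, -29.5, -26.3, -31.5, -68.0 and -14.9 points, and -42.7 with 5 kb as proximal. The difference over limb H3K4me3 was -22.2, -29.7, -23.6, -28.2, -27.6, -36.7, -70.1 and -12.1 points. The median fold outside was 6.71, 7.16, 6.80, 7.11, 10.2, 13.2, 10.02 and 6.32. The difference in FDR was -4.05 points with 50% covered, -7.45 by summit, -5.05 with equal numbers, -8.87 with the stronger control and -16.7 with all controls, and turned to 0.97 for EP300 scores of at least 100 and 4.34 for peaks with 50 or more tags, where the cause was not tested. H3K27ac at distal outside peaks was 11.6% with 50% covered, 9.23% by summit, 10.1% with equal numbers, 9.29% with the stronger control, 2.17% at an FDR of 5% or less, 14% with 50 or more tags, 10.8% with distal over 1 kb and 2.99% over 50 kb. Other alternatives, among them leaving out X, stayed within the interval. Those with 50 or more tags and without X were chosen after seeing the data. No paired analysis was possible because each condition had 1 library.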
